A study of Mus musculus with 2 samples.

Results

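Of the 50 gene probes of a two-colour array, 46 could be given a gene symbol. Among these, Actb, Cep41 and Alkbh4 were the genes of the actin and tubulin cytoskeleton. Their probes were picked out by transcript accession, a rule that used no measured value. The genes were nevertheless chosen with earlier results of these data known, so the choice was not blind. Each was represented by 1 probe of 10 repeat spots per array (A_51_P173760, A_51_P212271 and A_51_P209965). All 3 were measured in Sup and in IP on each array, meaning well above background there, as were 34 of the 50 gene probes. The samples were BV-2 cells, an immortalised microglial line of the mouse, with 1 array per group. OGD/R cells were held for 2 h without oxygen, in 95% N2 and 5% CO2 at 37 °C and in medium lacking glucose and serum, and then returned to normal oxygen and regular medium, a culture model of ischemia with reperfusion. The control is known only by a title that names no OGD/R. The treatment text attached to both samples is the same and describes the deprivation, so which sample is the control rests on the title alone. The control is taken to be cells kept in the ordinary medium with serum at 37 °C and 5% CO2, which the title does not state. In both groups the RNA was split by immunoprecipitation into a modified fraction (IP, read in Cy5) and the unmodified remainder in the supernatant (Sup, read in Cy3). The sources used here give neither the RNA modification bound by the antibody nor the length of reoxygenation, and they do not say whether the samples were separate cultures.

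Actin monomers assemble into filaments that shape the cell cortex, and microglia use them to extend processes, migrate and engulf debris. Actb encodes beta-actin, the main cytoplasmic form. Alkbh4 encodes a dioxygenase of the AlkB family that is known to remove a methyl group from a lysine of actin, a step linked to the binding of myosin and to cell division. Microtubules form the second filament system. Cep41 encodes a protein of the centrosome and cilium that is required for tubulin polyglutamylation, the addition of glutamate side chains to tubulin in the axoneme, and human CEP41 is mutated in a ciliopathy. The arrays measured RNA of these genes and no protein, filament or enzyme activity.

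Each array held 15742 spots and 14400 small-RNA probes beside the gene probes. A small-RNA probe had about 1 spot, where a gene probe had 10. Of the spots, 83 on the OGD/R array and 57 on the control array carried outlier flags and were left out, and none was saturated. Both arrays came from 1 scan of 1 slide. With 1 array per group no difference between the conditions had a replicate check and no test was made, so a difference is described by its size, with 2-fold (1 on the log2 scale) as the threshold. The SDs are over repeat spots of 1 array and hold technical scatter only. In such bulk RNA, a change of RNA per cell and a change in the cells that supplied it cannot be told apart. Of 12 microglial markers only Apoe had a gene probe, and both fractions of it were measured on each array at every retained spot. Of the oligodendrocyte markers only Mbp had a probe, and its spots were well above background in 0 of 10 in Sup but in 10 of 10 in IP on each array, with a median IP signal of 387 in OGD/R and 464 in control.

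The 3 genes moved in 3 different ways. After OGD/R, Actb was higher in both fractions and more so in IP, Cep41 was higher in Sup with little difference in IP, and Alkbh4 was lower in both fractions and more so in Sup. The IP/Sup ratio passed 2-fold for 1 of the 3, Cep41, which was lower. Among RNAs measured in each channel of each array, 4909 in number, 2.26% passed that threshold in either direction, and among the 34 gene probes 32.4% did. Over the wider set of 7470 RNAs measured in at least 1 channel the share was 10.2%. Of the 4909 RNAs, 4875 were small-RNA probes, whose values rest on about 1 spot each and not on an average over repeat spots. Shares over the RNAs are therefore not strictly like for like with values of the 3 genes. Total signal, the sum of the fractions, passed 2-fold for 1 of the 3, Actb, against 1.51% of the 4909 RNAs, 2.09% of the 7470 and 14.7% of the gene probes.

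Sup signal was at least 2-fold higher for 1 of the 3, Cep41, against 1.02% of the 4909 RNAs and 2.94% of the gene probes, which is Cep41 alone. It was at least 2-fold lower for 1 of the 3, Alkbh4, against 2.06% of the RNAs and 38.2% of the gene probes. IP signal was at least 2-fold higher for 1 of the 3, Actb, against 1.08% of the RNAs and 11.8% of the gene probes. Over the wider 7470 RNAs the shares were 1.95% for Sup higher, 2.21% for Sup lower and 4.35% for IP higher. The scaled values of the repeat spots were separate between the arrays for all 3 genes in the ratio and in Sup, and for Actb and Alkbh4 in IP and in total signal. Such separation was common among the gene probes, at 82.4% of the 34 for the ratio, 79.4% for Sup, 76.5% for IP and 85.3% for total signal.

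**Figure D1:**
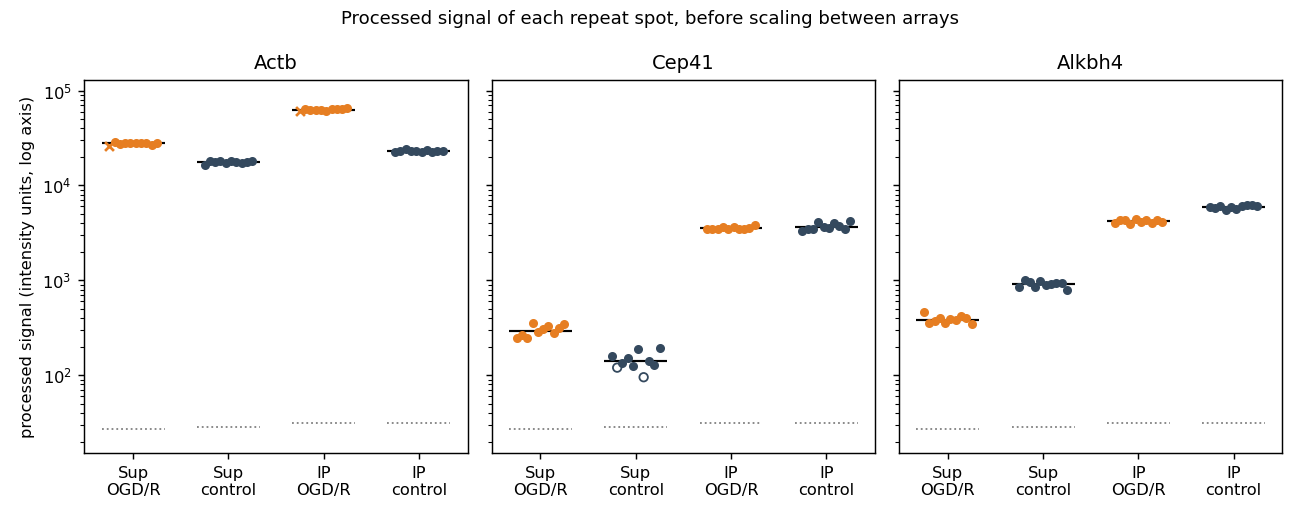
Processed signal of every repeat spot (intensity units, log axis) for Actb, Cep41 and Alkbh4, in Sup and IP of the OGD/R and control arrays, before scaling between arrays. Black bars are means of log2 values, dotted bars are the medians of negative control spots, open circles are spots not well above background and crosses are outlier-flagged spots left out. Actb spots of the OGD/R array lie above all control spots in both channels, whereas the IP spots of Cep41 overlap between the arrays.

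Actb had the clearest change. Its IP signal ran over a lowest, median and highest spot of 61122, 63139 and 64759 in OGD/R (9 spots, with 1 outlier-flagged spot left out), against 22376, 23036 and 23933 in control (10 spots). Its Sup signal ran over 26769, 27988 and 28615 in OGD/R, against 16548, 17556 and 18235 in control. Every OGD/R spot was brighter than every control spot in each channel. After scaling each array to its 75th percentile, IP was 3.02-fold higher, a log2 difference of 1.59 with a spot SD of 0.04. Sup was 1.65-fold higher, a log2 difference of 0.73 with a spot SD of 0.05. The fractions therefore moved in the same direction but by unequal amounts, and the difference was present at each of the 9 array positions with a retained spot on both arrays.

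The IP share of the Actb signal, IP over the sum of IP and Sup, was 69.4% ± 0.62 in OGD/R (SD over 9 spots) and 56.7% ± 0.87 in control (SD over 10 spots). By position the share was higher by between 11.8 and 13.9 percentage points. The log2 IP/Sup ratio, centred on the median RNA of each array, was 1.48 ± 0.04 in OGD/R and 0.67 ± 0.05 in control (SD over spots), a difference of 0.81 that fell short of 2-fold. The size of a share depends on the scanner's dye normalization. From background-subtracted signals taken before that step the Actb share was 57.2% in OGD/R and 43.2% in control.

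Total Actb signal was 2.37-fold higher in OGD/R, a log2 difference of 1.25 with a spot SD of 0.03. Among the 34 gene probes 0 had a larger increase in total signal or in IP than Actb, while 1 had a decrease of greater size in total signal, Carhsp1 at -1.61, and 1 unnamed probe a decrease of greater size in IP, at -1.65. These probes were singled out after their values were seen. Among the 4909 RNAs, 2 had a larger increase in IP and 10 a larger increase in total signal, and among the wider 7470 these numbers were 72 and 31. Nearly all of these RNAs were small-RNA probes read from about 1 spot, without the averaging over repeat spots behind the Actb value. The ratio difference was less unusual, since 12 of the 34 gene probes exceeded it. The total difference stayed past 2-fold under all 10 alternative settings, at 1.08 to 1.34. Whether the probe also binds transcripts of other actin genes, which are closely related in sequence, was not tested.

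Cep41 had the opposite change in the balance of the fractions. Its Sup signal ran over a lowest, median and highest spot of 245, 295 and 355 in OGD/R, against 95.3, 138 and 192 in control (10 spots each). The lowest OGD/R spot was thus brighter than the highest control spot. Its IP signal ran over 3441, 3516 and 3800 in OGD/R, against 3288, 3617 and 4228 in control, and here the spots of the arrays overlapped. Scaled Sup signal was 2.20-fold higher in OGD/R, a log2 difference of 1.13 with a spot SD of 0.36. Scaled IP signal differed by 0.090 with a spot SD of 0.13, less than the scatter of the spots. Sup was higher at all 10 array positions, by 0.69 to 1.86 on the log2 scale, while IP was higher at 7 positions and lower at 3.

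The IP share of Cep41 was 92.3% ± 0.79 in OGD/R and 96.3% ± 0.77 in control (SD over 10 spots each). In the processed signals nearly all of it lay in the IP channel on both arrays, so a gain in Sup moved the share by only -3.94 percentage points. The level of the share depended on the processing. Before dye normalization it was 88.1% in OGD/R and 93.9% in control. With normexp background correction and an offset of 50 it was 69.3% in OGD/R and 71.2% in control. The size of the difference depended on the processing too. It was -5.82 percentage points before dye normalization and -1.90 with normexp background correction and an offset of 50 (spot SD 1.53). On the log2 scale the centred IP/Sup ratio was 3.90 ± 0.16 in OGD/R and 5.00 ± 0.32 in control, a difference of -1.10 or 2.14-fold lower. It was lower at all 10 positions. Of the 34 gene probes, 5 had a lower ratio in OGD/R, and 1 of these fell further than Cep41. Of the 34, 0 had a larger increase in Sup than Cep41, although decreases of greater size were found, Alkbh4 at -1.17 among them. Total Cep41 signal differed by 0.094 with a spot SD of 0.13, with overlapping spots, so the sum of the fractions did not part the arrays beyond spot scatter.

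The Cep41 ratio rests on a dim Sup channel. On the control array 8 of its 10 Sup spots were well above background, where the lowest Sup signal so marked was 113, and on the OGD/R array 10 of 10 were. The scanner's own error for the processed Sup signal of a Cep41 spot averaged 37.7 in OGD/R and 27.5 in control. Its error for the log2 ratio of a single spot averaged 0.40 in OGD/R and 0.49 in control, larger than for Actb, where it averaged 0.23 and 0.21. For Alkbh4 this error was also larger than for Actb, at 0.38 in OGD/R and 0.32 in control. With only the spots well above background in both channels the ratio difference was -0.99, just short of 2-fold.

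Alkbh4 was lower in both fractions after OGD/R. Its Sup signal ran over a lowest, median and highest spot of 348, 386 and 460 in OGD/R, against 793, 929 and 1000 in control (10 spots each). Its IP signal ran over 3966, 4246 and 4431 in OGD/R, against 5543, 6015 and 6210 in control. Every OGD/R spot was dimmer than every control spot in each channel. Scaled Sup signal was 2.25-fold lower, a log2 difference of -1.17 with a spot SD of 0.16. Scaled IP signal differed by -0.36 with a spot SD of 0.09, a 1.28-fold lower level. Both channels were lower at all 10 positions.

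Because Sup fell by more than IP, the IP share of Alkbh4 was higher, at 91.5% ± 0.94 in OGD/R and 86.7% ± 0.89 in control (SD over 10 spots each). The centred log2 IP/Sup ratio was 3.75 ± 0.17 in OGD/R and 2.99 ± 0.11 in control, a difference of 0.76 that was short of 2-fold. This ratio difference was near the middle of the gene probes, of which 15 exceeded it and 18 lay below it, with a median of 0.65. Total Alkbh4 signal was 1.41-fold lower, a log2 difference of -0.49 with a spot SD of 0.08. That difference was short of 2-fold, and 8 of the 34 gene probes had a more negative one. Whether it is related to the higher signal of Actb, the gene of its reported substrate, was not tested. The share difference of Alkbh4 depended on the processing. It was 4.84 percentage points here, 7.58 before dye normalization, 1.44 with normexp background correction (spot SD 1.56) and 0.092 with normexp and loess (spot SD 1.41), so the last 2 were within spot scatter.

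The stage of the signal mattered for the dim channels. In Sup, the median pixel signal of Cep41 averaged 33.7 in OGD/R and 26.3 in control, above a local background of 12 and 12.2. Negative control spots, which match no transcript, had median pixel signals of 20 and 19 in the same channel. After the scanner's background subtraction the Cep41 Sup signal averaged 12.9 in OGD/R and 6.15 in control, and the log2 difference between arrays grew from 0.36 in the raw pixels to 1.09. Negative control spots reached at most 2.03 and 0.70 background-subtracted units, so the Cep41 spots of both arrays stood above them.

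The Sup difference of Alkbh4 likewise ran over -0.63 in raw pixels, -0.86 after subtraction of the local background and -1.21 after background subtraction by the scanner. Actb, far above background, was little affected by these steps, at 0.70, 0.71 and 0.71 in Sup and 1.49, 1.51 and 1.52 in IP. In the processed signal its differences were 0.66 in Sup and 1.45 in IP. The direction in Sup was the same at every stage for all 3 genes. The IP difference of Cep41 lay between -0.05 and 0.04 over the stages, and changed sign within that range.

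**Figure D2:**
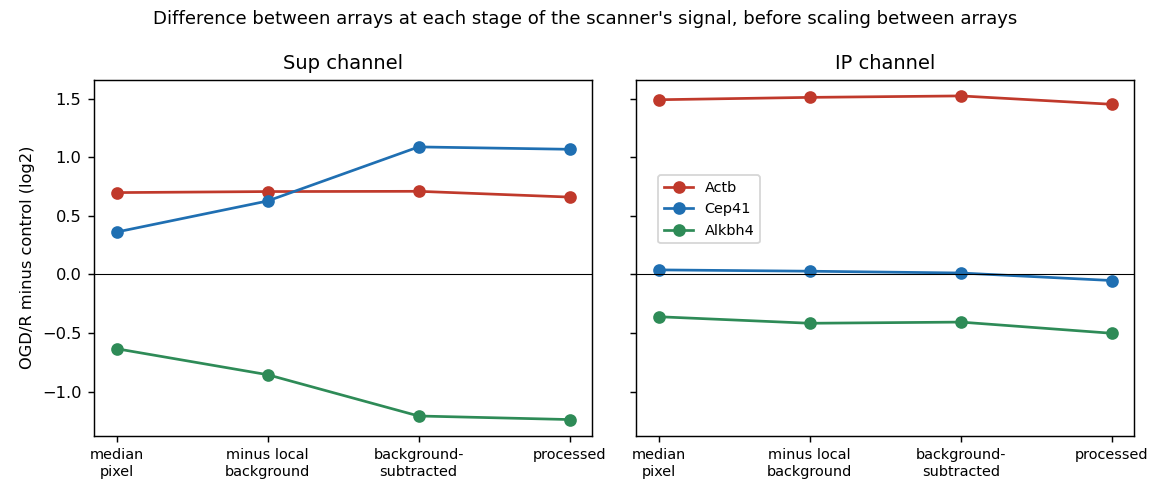
Log2 difference, OGD/R minus control, of Actb, Cep41 and Alkbh4 at 4 stages of the scanner's signal, in Sup and in IP, before scaling between arrays. Points are differences of means over repeat spots. The Sup differences of Cep41 and Alkbh4 widen as background is removed, to 1.09 and -1.21, whereas those of Actb stay between 0.66 and 0.71.

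With normexp background correction of the raw median signals, which models background per channel, leaves out the scanner's detrending and dye normalization and here added an offset of 50 to every signal, the ratio differences were -0.15 for Cep41 and 0.086 for Alkbh4, and their Sup differences were 0.17 and -0.38. The offset exceeded the scanner's background-subtracted Sup signal of both genes. That signal averaged 12.9 in OGD/R and 6.15 in control for Cep41, and 17.1 in OGD/R and 39.7 in control for Alkbh4. Normexp itself started from median signals and local background. Their difference averaged 21.7 in OGD/R and 14.1 in control for Cep41. For Alkbh4 it averaged 26.65 in OGD/R and 48.35 in control, the latter close to the offset. With normexp and no offset, a setting chosen after the data were seen, the ratio differences were -0.77 and 0.58 and the Sup differences 0.80 and -0.98. The Actb ratio differed by 0.74 with and without the offset. When arrays were scaled on spike-in probes, the Sup difference was 1.04 for Actb, then past 2-fold, 1.45 for Cep41 and -0.86 for Alkbh4, then short of it. With the offset only 8 RNAs were at least 2-fold higher in total signal, and Actb, at 1.08, was 1 of them.

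**Figure D3:**
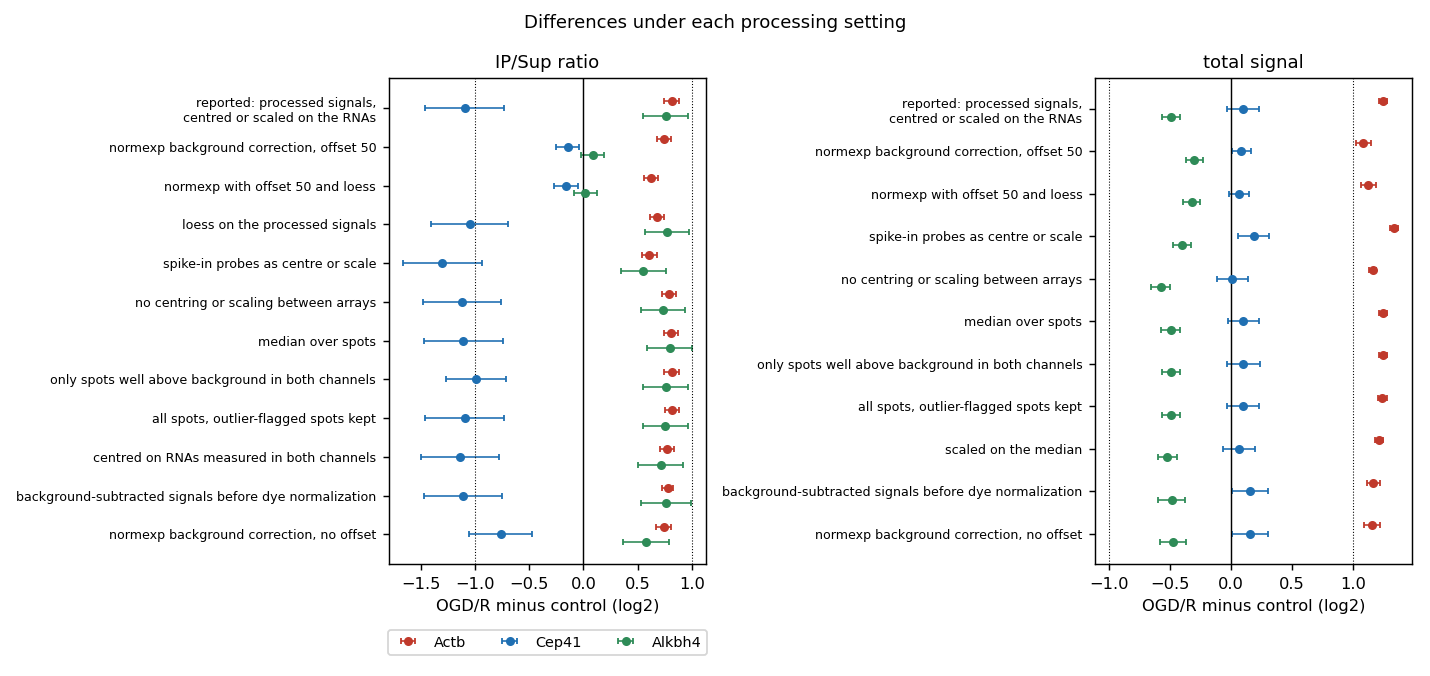
IP/Sup ratio differences (left) and total signal differences (right), OGD/R minus control in log2 units, under each processing setting. Points are Actb, Cep41 and Alkbh4, bars are the SD over repeat spots and dotted lines mark 2-fold. Total Actb signal lies beyond 2-fold in every setting, and the ratios of Cep41 and Alkbh4 lie near 0 with normexp and an offset of 50.

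Seen against the other gene probes, the direction of Actb and Cep41 in Sup was in the minority. Of the 34, 10 were higher in Sup after OGD/R, Actb and Cep41 among them. By the sign of the difference 9 were higher in both channels, and these included Actb, and Cep41 with an IP difference within its spot scatter. Alkbh4 belonged to the 17 that were lower in both. The median Sup difference over the 34 was -0.54 and the median IP difference -0.03, against -0.05 and 0.03 over the 4909 RNAs. The median ratio difference was 0.65 for the 34 gene probes, so the higher ratios of Actb and Alkbh4 ran the same way as most of them, and the lower ratio of Cep41 did not.

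The gene probes most like each of the 3 were found by distance over the Sup and IP differences, among 32 other named probes. Nearest to Actb was Hspb7, a small heat shock protein gene, which differed by 0.53 in Sup and 1.23 in IP. Bambi, which encodes a pseudoreceptor of TGF-beta signalling, and the transcription factor gene E2f1 followed, at distances of 0.76 and 0.90. Nearest to Cep41 was Taf1a, a subunit of the RNA polymerase I initiation complex, which differed by 0.80 in Sup and 0.65 in IP. Rab5a followed at 0.69, differing by 0.57 in Sup and -0.30 in IP. Like Cep41 it was higher in Sup with a lower ratio, at -0.92, whereas the ratio of Taf1a differed by -0.20. No probe lay close to Cep41, since even Taf1a was 0.66 away. Alkbh4 by contrast had near neighbours. The caveolin gene Cav2 lay at 0.05, differing by -1.14 in Sup and -0.32 in IP, and Olfr166 and Lhx1 lay at 0.15 and 0.17.

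**Figure D4:**
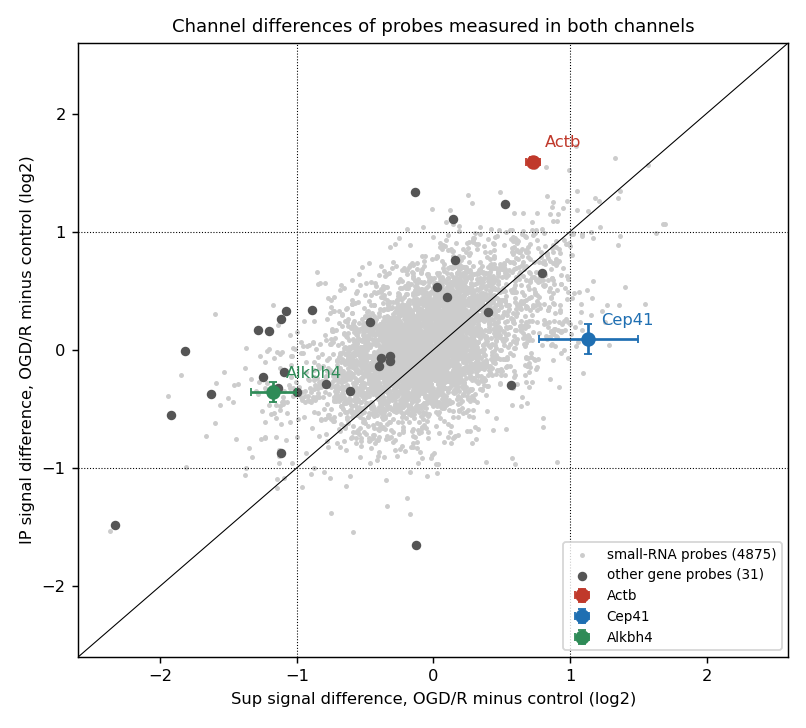
Sup difference (horizontal) and IP difference (vertical), OGD/R minus control in log2 units after scaling, for every probe measured in each channel of each array. Grey points are 4875 small-RNA probes and dark points the other 31 gene probes, bars on the 3 coloured genes are the SD over repeat spots, dotted lines mark 2-fold and the diagonal marks equal differences. Actb lies high in IP at 1.59, Cep41 to the right at 1.13 in Sup and Alkbh4 to the left at -1.17, and 4 probes fall outside the axes.

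The wider pathways could not be followed on this array. Of 48 actin and actin regulator genes, 29 genes of tubulin and its modification, 13 centrosome and cilium genes, 12 genes of the AlkB family and RNA methylation and 3 intermediate filament genes, 0 had a named gene probe beside the 3 described. Gene probes without a symbol could not be assigned to a list.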

How the data were processed

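RNA of 2 BV-2 samples was hybridised to 2 two-colour arrays, and the labels' protocols assign IP to Cy5 and Sup to Cy3. The deposited files give spot intensity from Agilent Feature Extraction 11.0.1.1, corrected for background and spatial trend and then for dye (linear factor and lowess) within an array, per the file headers. Raw median and local background intensity, log10 ratios with their error, and 0 or 1 flags (other values) were also deposited, per the file headers. The authors' normalized table holds no gene probe and was not used. Values are not scaled between arrays, and dye normalization removes any array-wide change in IP/Sup.

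Outlier-flagged and control spots were left out, and log2 signals of repeat spots were averaged. Gene probes had repeat spots, whereas small-RNA probes had about 1 spot each. A channel of a probe counted as measured when 50% or more of its spots carried the scanner's flag for well above background. Ratios were centred on the median of the 7470 RNAs measured in 1 channel or more of each array. Channels and totals were scaled to the 75th percentile, for Sup over all small-RNA and gene probes, for IP over those detected on both arrays and for totals over the 7470 RNAs. Differences are OGD/R minus control, and the SD of a difference combines the spot SDs of both arrays. Accessions were matched to RefSeq (GRCm38.p6), giving symbols for 46 of the 50 gene probes; no coordinates are given because the headers name another build.

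Normexp (on raw median signals, in place of the planned means) and loess used limma 3.58.1 in R 4.3.3, other steps Python 3.11.15. The computation was tested on simulated data with known changes in the IP signal of small-RNA probes measured in both channels. Changes of single probes in a dim Sup channel were not simulated. The genes, lists and settings were chosen with earlier results of these data known. Named beside the 3 genes are list members with a probe and the 3 nearest gene probes of each, of which 1 is not reported here. Alternatives covered signal, background correction, loess, centring, scaling, spots, filter and threshold. Probe sequences were not analysed here.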

Additional observations from a re-analysis of the deposited data

How the results depend on the processing

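Directions of the ratio and total differences of Actb, Cep41 and Alkbh4 were the same in all alternatives tried, but some differences lay within spot scatter. Total Cep41 differed by 0.0077 without scaling (spot SD 0.13), and the Alkbh4 ratio by 0.015 with normexp and loess (spot SD 0.11). With normexp (offset 50) the ratio differed by 0.74 for Actb, -0.15 for Cep41 and 0.086 for Alkbh4, and the total by 1.08 for Actb and -0.30 for Alkbh4. With normexp and loess these were 0.63, -0.16 and 0.015 for the ratio and 1.13 and -0.33 for the total. The offset of 50 exceeds the mean background-subtracted Sup signal of Cep41 and Alkbh4, as given above. With the spike-in probes as centre or scale the Actb ratio differed by 0.61, and the totals by 1.34 for Actb and -0.40 for Alkbh4. Without scaling the totals differed by 1.16 for Actb and -0.58 for Alkbh4. Loess alone gave 0.68 for the Actb ratio. Among settings added after the data were seen, signals before dye normalization gave 1.17 for total Actb, and normexp with no offset gave 0.74 for its ratio and 1.16 for its total. Beyond these, total Cep41 moved by less than 1 spot SD throughout. The cause of the other shifts was not tested.

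The number of RNAs past 2-fold depended on the processing. Of 7470 RNAs, 319 had a higher and 446 a lower ratio, and 93 a higher and 63 a lower total. With normexp these were 10, 5, 8 and 14, and with normexp and loess 7, 10, 8 and 14. With spike-in probes they were 195, 666, 140 and 37. Restricted to RNAs measured in both channels the counts were 66, 45, 36 and 38, with no filter 1116, 1252, 388 and 278, and at 1.5-fold 901, 1032, 582 and 360. The number of arrays limits precision. No paired analysis was possible because each group has 1 array.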
